A study of Mus musculus with 40 samples.

Results

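The alveolar type 1 cell genes described here are Ager, Hopx, Aqp5, Pdpn, Clic5, Cav1, Rtkn2 and Akap5. These 8 genes were chosen by name, as known genes of that cell type, from the 18193 genes that the arrays name. The choice was made with earlier results of these data known, so their counts beside those of all genes are a description. Each gene stands on the probe set with the highest mean signal over all 40 arrays. The 8 genes have 15 probe sets in all, and the others serve as a check.

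The study followed juvenile growth in whole lung, kidney and heart of male C57BL/6 mice. Its question was how expression differs between fast-growing and slowly growing animals. The ages were 1 week, labelled rapidly proliferating, 4 weeks, labelled slowly proliferating, and, for lung and kidney, 8 weeks, labelled very slowly proliferating. No animal is labelled as treated or genetically altered. Each of the 8 groups of organ and age holds 5 arrays, and the design text counts 5 animals each for lung and kidney; where the labels do not name the animals, p-values measure the spread between arrays only.

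Type 1 cells are the very thin, flat cells that cover most of the alveolar surface and form the epithelial side of the barrier for gas exchange. Type 2 cells make surfactant and can divide and give rise to type 1 cells. In the mouse lung, alveoli form by septation after birth, so whole lung at 1 week is still building its alveolar surface.

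The label of 2 arrays did not match their markers, and both were left out. The array labelled lung, 1 week, replicate 4 had an Ager signal of 335.7 and an Aqp5 signal of 12.3. The array labelled heart, 1 week, replicate 5 had an Ager signal of 17050 and an Aqp5 signal of 2834. Myh6, the heart myosin heavy chain, was at 36020 on the first and 2396 on the second; the surfactant gene Sftpc was at 1982 and 27190. This left 14 lung, 15 kidney and 9 heart arrays. Signals are linear intensities, and changes were tested with limma as differences of log2(signal + 16) where a group mean reached a signal of 117.9. By the probe set used, all 8 genes reached that level in lung, 4 did in kidney (Hopx, Pdpn, Clic5 and Cav1) and 5 in heart (those and Ager). A dimmer probe set of Ager in kidney, and 1 of Akap5 in kidney and heart, also reached it. The number of arrays, 4 or 5 per group, limits the precision.

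From 1 to 4 weeks, 7 of the 8 genes rose in lung and Akap5 did not. The rises ran from 1.28-fold for Rtkn2 to 2.23-fold for Clic5, and 20.0% of all 13808 genes tested rose. None of the 8 fell, against 19.8% of all genes. The median change of the 8 genes was 0.44 on the log2 scale and that of all genes was -0.01. Whole lung was measured, so more type 1 cells and more RNA per cell cannot be told apart.

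**Figure D1:**
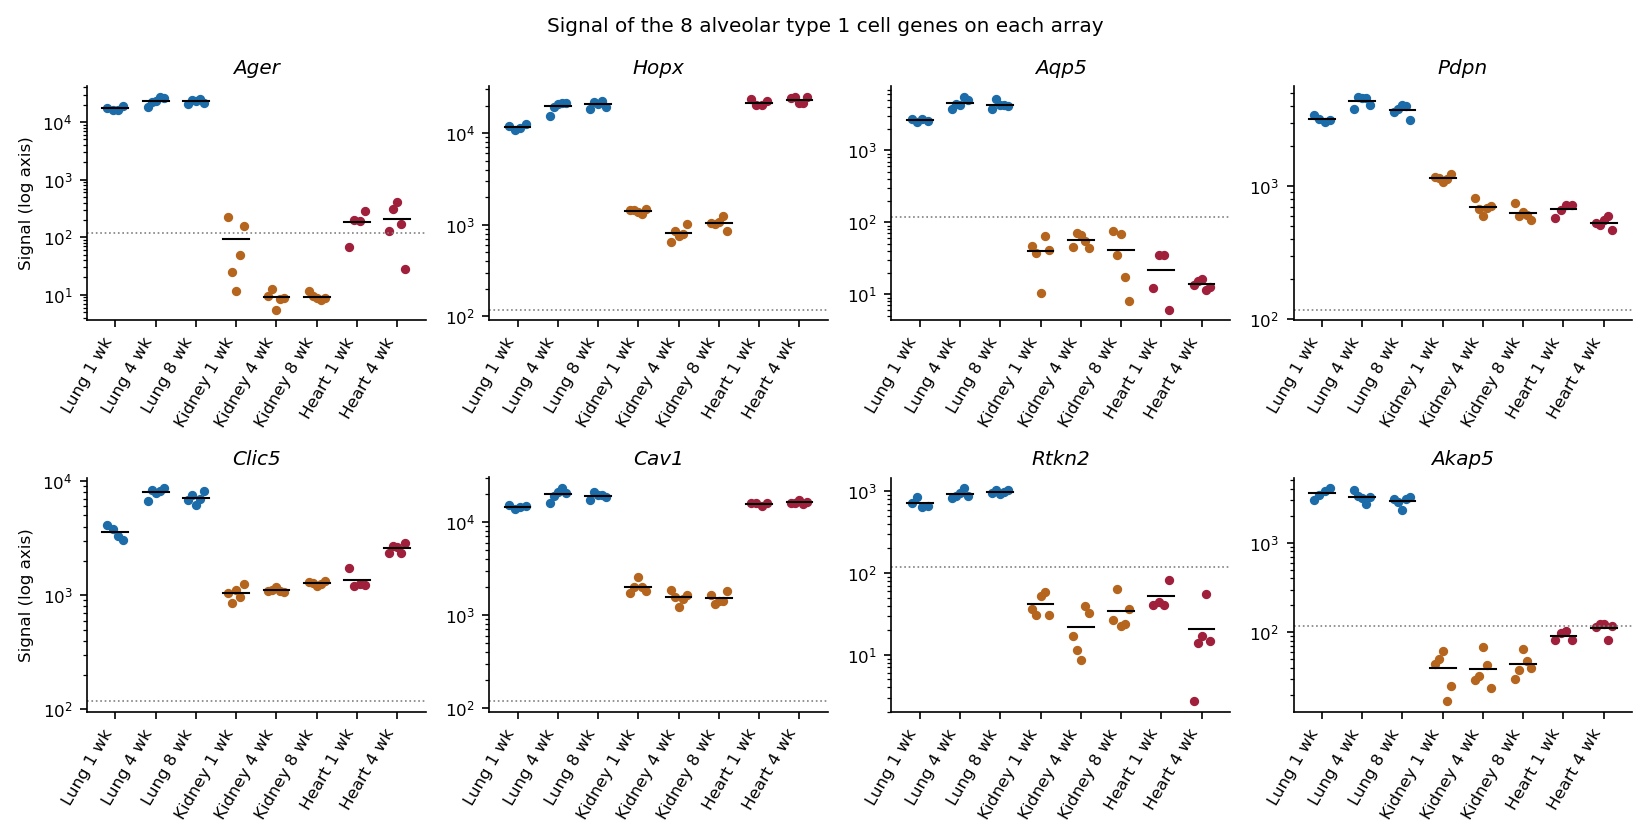
Signal of each alveolar type 1 cell gene on every array used, by organ and age in weeks, on log axes (linear array signal). Points are arrays, bars are group means and the dotted line is the signal of 117.9 needed for a test. Ager, Aqp5, Rtkn2 and Akap5 sit high in lung and low in kidney and heart, while Hopx and Cav1 are bright in both lung and heart; Hopx at 1 week averages 11720 in lung and 21610 in heart, and the order of the 2 organs turns under quantile normalization for Hopx at 4 weeks and for Cav1 at 1 week.

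Clic5 encodes a chloride intracellular channel protein that links membranes to the actin cytoskeleton. In lung it had signals of 4125, 3826, 3328 and 3022 on the 1-week arrays, 6709, 8350, 7820, 8238 and 8679 at 4 weeks, and 6900, 7484, 6156, 6998 and 8225 at 8 weeks. All arrays of 4 and 8 weeks lay above all arrays of 1 week. The change from 1 to 4 weeks was 1.16 ± 0.11 (log2, SE; adjusted p = 1.7e-06, limma), which stood at the 97.3 percentile of all genes tested. The mean rose from 3575 ± 494 (SD, n = 4) to 7959 ± 763 (SD, n = 5). All 4 probe sets of Clic5 rose, by 0.68 to 1.26.

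Aqp5 encodes aquaporin 5, the water channel of the apical membrane of type 1 cells. Across the lung arrays it read 2706, 2476, 2761 and 2536 at 1 week, 3807, 4358, 4251, 5574 and 5057 at 4 weeks, and 3716, 5096, 4274, 4218 and 4115 at 8 weeks. The youngest arrays were again the lowest, with no overlap with either later age. Aqp5 rose by 0.80 ± 0.11 to 4 weeks (log2, SE; adjusted p = 5.8e-05, limma), a 1.74-fold change.

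Hopx encodes a small homeodomain protein that does not bind DNA itself and is made in type 1 cells and in heart muscle. Its lung signals were 12060, 10810, 11440 and 12560 at 1 week, 15540, 19390, 20720, 21260 and 21530 at 4 weeks, and 18340, 21970, 20900, 22350 and 19490 at 8 weeks. The ages of 4 and 8 weeks overlapped each other and lay above 1 week on every array. The change to 4 weeks was 0.74 ± 0.10 (log2, SE; adjusted p = 4.3e-05, limma), and the other Hopx probe set rose by 0.84.

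Ager encodes RAGE, a receptor of the immunoglobulin superfamily that lies in the basal membrane of type 1 cells and binds S100 proteins and HMGB1. Its lung signals were 17780, 16390, 16490 and 18670 at 1 week, 18440, 22390, 23180, 27590 and 25640 at 4 weeks, and 20720, 24240, 23320, 24940 and 21390 at 8 weeks. One 4-week array, replicate 1, lay within the 1-week range, and the 8-week arrays all lay above that range. Ager rose by 0.42 ± 0.11 to 4 weeks (log2, SE; adjusted p = 0.0054, limma), and its other probe set rose by 0.61.

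Cav1 encodes caveolin 1, the coat protein of caveolae, which endothelial cells also make in large amounts. In lung, Cav1 read 15180, 13720, 14400 and 14920 at 1 week, 16200, 19260, 21160, 23190 and 20470 at 4 weeks, and 17370, 21290, 19410, 19720 and 18780 at 8 weeks. No later array reached down to the 1-week range. Cav1 rose by 0.45 ± 0.10 to 4 weeks (log2, SE; adjusted p = 0.0017, limma).

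Pdpn encodes podoplanin, a mucin-type glycoprotein of the type 1 cell surface that lymphatic endothelium, mesothelium and podocytes also carry. The lung arrays of Pdpn read 3450, 3180, 3055 and 3146 at 1 week, 3791, 4700, 4559, 4605 and 4073 at 4 weeks, and 3597, 3811, 4047, 3986 and 3150 at 8 weeks. The 4-week arrays lay above the 1-week arrays, and 1 array of 8 weeks (replicate 5) fell back among them. The rise to 4 weeks was 0.43 ± 0.09 (log2, SE; adjusted p = 0.0015, limma).

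Rtkn2 encodes rhotekin 2. Its signals in lung were 730.2, 850.4, 636.8 and 667.7 at 1 week, 831.8, 867.9, 954.7, 1095 and 881.3 at 4 weeks, and 964.6, 1025, 941.7, 969 and 1030 at 8 weeks. The 1-week and 4-week arrays overlapped, through replicate 2 of the first and replicate 1 of the second; the 8-week arrays lay above all of 1 week. Rtkn2 rose by 0.36 ± 0.10 to 4 weeks (log2, SE; adjusted p = 0.0083, limma).

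Akap5 encodes an anchoring protein that holds protein kinase A, protein kinase C and calcineurin at the membrane. Its lung signals were 2995, 3387, 3791 and 4077 at 1 week, 3929, 3356, 3161, 2698 and 3241 at 4 weeks, and 3080, 2838, 2299, 3049 and 3226 at 8 weeks. The 3 ages overlapped. The change to 4 weeks was -0.12 (95% interval -0.39 to 0.15; adjusted p = 0.48, limma). A rise of the size seen for the other 7 genes lies above that interval. Its 3 probe sets gave -0.35, -0.12 and -0.11, none past the threshold when each was tested alone. With the difference between the 3′ and 5′ actin probe sets, a measure of RNA quality, as a covariate, the change was -0.27 (adjusted p = 0.025).

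Counted by arrays, 5 of the 8 genes (Hopx, Aqp5, Pdpn, Clic5 and Cav1) had no overlap between 1 and 4 weeks in the direction of a rise, against 16.6% of all genes. The 7 rises passed the threshold whichever 1 of the 14 lung arrays was left out. With the array labelled lung, 1 week, replicate 4 kept as labelled, 3 genes passed: Hopx, Clic5 and Cav1. Ager then changed by 1.55 with an adjusted p of 0.19, and Aqp5 by 2.11 with an adjusted p of 0.12.

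From 4 to 8 weeks none of the 8 genes passed the threshold in lung, against 2.08% of all genes by limma. At an unadjusted p under 0.05 the count was 1, that of Pdpn. It changed by -0.23 (95% interval -0.41 to -0.04; adjusted p = 0.20, limma). The intervals of all 8 genes lay between -0.43 and 0.29. Clic5 changed by -0.15, Akap5 by -0.18 and Hopx by 0.07. The median of the 8 changes was -0.07. This comparison and that of 4 with 1 week share the 4-week arrays.

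From 1 to 8 weeks 6 of the 8 genes rose by limma, namely Ager, Hopx, Aqp5, Clic5, Cav1 and Rtkn2, against 22.1% of all genes. The same 6 had no overlap between the arrays of 1 and 8 weeks, against 18.1% of all genes. Clic5 rose 2.00-fold (log2 change 1.00, adjusted p = 5.4e-06), Hopx 1.76-fold (adjusted p = 1.5e-05) and Aqp5 1.62-fold (adjusted p = 0.00016). Rtkn2 rose by 0.45, Cav1 by 0.41 and Ager by 0.40. Kept as labelled, the left-out array brought the count to 3.

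Pdpn and Akap5 did not pass from 1 to 8 weeks. Pdpn changed by 0.21 (95% interval 0.02 to 0.40; adjusted p = 0.076, limma), and without replicate 5 of the 8-week lungs by 0.27 (adjusted p = 0.022). Akap5 changed by -0.30 (95% interval -0.57 to -0.03; adjusted p = 0.07), and without replicate 1 of the 1-week lungs by -0.38 (adjusted p = 0.033). The mean of its 3 probe sets gave -0.34 with an adjusted p of 0.0054, 1 of them alone gave -0.48 (adjusted p = 0.0096), and the fit with the actin covariate gave -0.51 (adjusted p = 0.00065). With that covariate Pdpn changed by 0.30 (adjusted p = 0.02).

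**Figure D2:**
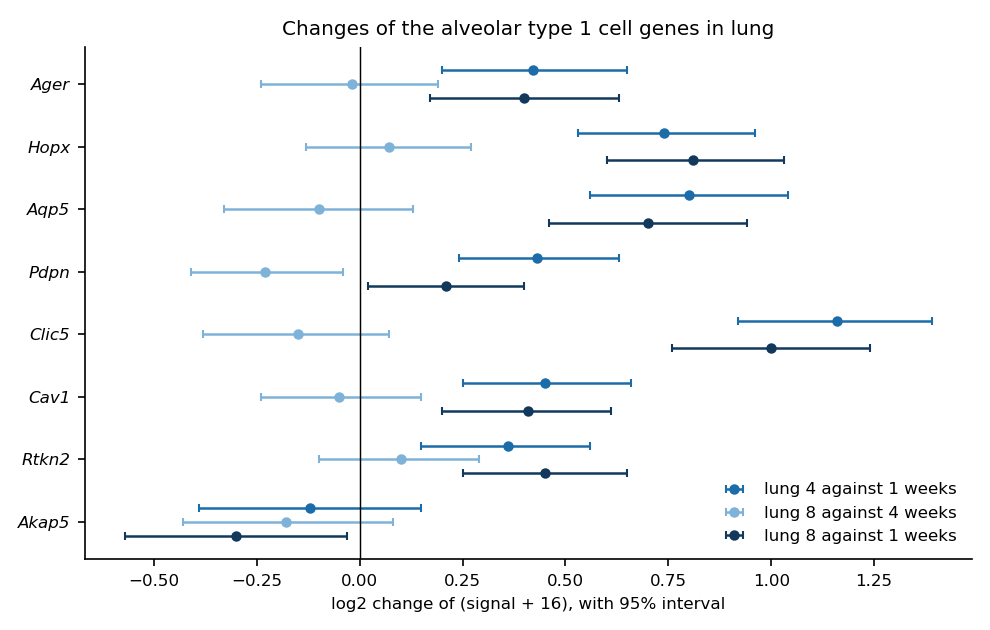
Change of each alveolar type 1 cell gene in lung between ages, as the log2 difference of (signal + 16) with its 95% interval from limma, n = 4 arrays at 1 week and 5 at 4 and at 8 weeks. The intervals from 1 to 4 weeks lie above 0 for 7 genes and span 0 for Akap5; those from 4 to 8 weeks span 0 for all but Pdpn.

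Promoter sequences of the genes, from 250 bases before to 50 after the start of transcription, were taken from RefSeq (GRCm38.p6), which gave 9 promoters for 7 of the 8 genes; Rtkn2 was not matched. They were searched on both strands for the core motif of TEAD factors, GGAATG, and that of NKX2-1, CTCAAG, both regulators of type 1 cell genes, and no promoter of the 8 genes held both. TEAD's core was in 0 of the 9 promoters and in 14.7% of all 32851 promoters of that length. The NKX2-1 core was in 2 of 9, both of Hopx, against 15.9% of all. The promoters shown are both of Hopx, that of Clic5, the gene with the largest rise, and that of Akap5, which did not rise. Each is printed 5′ to 3′ on the strand of its gene, and capitals mark the NKX2-1 core, which reads CTTGAG here because it lies on the opposite strand. In Hopx it starts 112 bases before one start site and 36 bases after the other.
Hopx, chr5:77115074-77115373, minus strand: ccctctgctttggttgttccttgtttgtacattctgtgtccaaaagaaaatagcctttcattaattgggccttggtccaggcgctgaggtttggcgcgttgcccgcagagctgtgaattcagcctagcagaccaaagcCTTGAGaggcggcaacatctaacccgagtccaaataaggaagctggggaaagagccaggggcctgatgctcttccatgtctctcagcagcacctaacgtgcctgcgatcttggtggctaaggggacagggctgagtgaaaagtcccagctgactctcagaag
Hopx, chr5:77095218-77095517, minus strand: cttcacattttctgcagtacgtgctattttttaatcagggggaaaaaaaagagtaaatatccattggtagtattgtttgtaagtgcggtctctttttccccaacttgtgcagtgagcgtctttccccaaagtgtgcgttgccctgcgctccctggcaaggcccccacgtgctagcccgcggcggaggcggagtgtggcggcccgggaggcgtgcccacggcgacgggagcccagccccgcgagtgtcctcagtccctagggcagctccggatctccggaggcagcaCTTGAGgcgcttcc
Clic5, chr17:44188322-44188621, plus strand: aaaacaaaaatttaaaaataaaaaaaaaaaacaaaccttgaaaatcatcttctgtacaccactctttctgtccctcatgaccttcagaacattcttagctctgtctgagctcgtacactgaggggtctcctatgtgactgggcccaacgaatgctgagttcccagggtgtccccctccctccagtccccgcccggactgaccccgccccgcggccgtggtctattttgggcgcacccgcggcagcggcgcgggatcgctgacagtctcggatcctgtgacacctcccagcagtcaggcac
Akap5, chr12:76324641-76324940, plus strand: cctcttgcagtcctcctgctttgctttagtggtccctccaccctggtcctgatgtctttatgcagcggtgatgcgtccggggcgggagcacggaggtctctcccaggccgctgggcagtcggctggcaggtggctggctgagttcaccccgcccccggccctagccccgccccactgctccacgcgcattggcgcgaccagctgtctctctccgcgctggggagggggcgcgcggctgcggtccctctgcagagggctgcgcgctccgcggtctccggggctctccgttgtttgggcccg
The Akap5 window was 70.7% G and C and the Clic5 window 54.3%, with a median of 52.7% over all promoters. The Aqp5 window was the richest of the 9, at 79.7%, and that of Pdpn the poorest, at 48.7%. A letter match in these windows is not evidence of binding.

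The other genes of type 1 cells were taken from a list of 18 that were tested. From 1 to 4 weeks 15 of the 18 rose and 1 fell, with a median change of 0.59; from 4 to 8 weeks none rose and 2 fell; and from 1 to 8 weeks 12 rose and 1 fell, with a median of 0.44. Cyp2b10, a cytochrome P450, rose by 4.08 from 1 to 8 weeks, Pxdc1 by 1.45, Mal2 by 0.99 and the adhesion molecule Icam1 by 0.80.

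Type 2 cell genes moved in the same direction, beside the same shares of all genes. Of 11 tested, 7 rose and none fell from 1 to 4 weeks (median 0.37), and 8 rose from 1 to 8 weeks (median 0.42). These included the lipid transporter Abca3 at 0.69 and the surfactant proteins Sftpd at 0.68 and Sftpa1 at 0.63. The mean log2 signal of the type 2 list was 13.16 to 13.35 at 1 week, 13.29 to 13.76 at 4 weeks and 13.52 to 13.73 at 8 weeks. The 8 type 1 genes had a mean of 12.16 to 12.23, 12.53 to 12.85 and 12.57 to 12.75 at those ages.

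Genes around each of the 8 were counted from lists by role, over the change from 1 to 8 weeks in lung. In that comparison 22.1% of all genes rose and 22% fell, and several of the lists lay near these shares. Of 10 tested regulators of type 1 cells, 2 rose and 3 fell: Foxa1 by 0.61 and Klf5 by 0.57 upwards, and Hdac2 by 0.78 and Gata6 by 0.48 among those that fell. Ligands and signalling partners of RAGE split 4 up and 2 down of 10. S100a4 changed by 1.14, Diaph1, a formin bound by the receptor's tail, by 0.67, S100b by -1.12 and the chromatin protein Hmgb2 by -1.15.

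Water and sodium transport genes rose in 3 and fell in 1 of 9 tested over the same interval. The sodium pump subunit Atp1b1 changed by 1.05, the epithelial sodium channel subunits Scnn1a by 0.82 and Scnn1b by 0.76, and the chloride channel Cftr by -0.29. Partners of podoplanin rose in 3 and fell in 1 of 7. The tetraspanin Cd9 changed by 0.75, the galectin Lgals8 by 0.39, moesin (Msn) by 0.24 and the hyaluronan receptor Cd44 by -0.51.

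Caveola genes rose in 2 and fell in 3 of 7. Cav2, the partner of caveolin 1 in the coat, changed by 1.04; Cavin3 changed by -0.60, Cav3 by -0.82 and the endothelial nitric oxide synthase Nos3 by -0.63. Beside Clic5, 3 of 4 CLIC family genes rose, Clic4 by 0.44, Clic6 by 0.40 and Clic3 by 0.32, all less than the 1.00 of Clic5. Of 10 partners of AKAP5, 3 rose and 5 fell, among them Adcy9 at 0.73, Prkacb, a catalytic subunit of protein kinase A, at -0.52, Cacna1c at -0.73 and the related anchor Akap12 at -0.93.

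Markers of the other cells of the lung were counted over the same ages, where 20.0% of all genes rose and 19.8% fell from 1 to 4 weeks. Airway cell genes rose in 4 of 7 to 4 weeks (median 1.00) and macrophage genes in 5 of 7 (median 0.47). Of 8 myofibroblast genes, which belong to the cells that drive septation, 7 fell and 1 rose from 1 to 4 weeks (median -1.76), and all 12 cell cycle genes tested fell (median -1.39). From 1 to 8 weeks tenascin C (Tnc) fell by 4.47 and elastin (Eln) by 2.66. Endothelial genes, which matter here because endothelium expresses Cav1 and Clic5, rose in 6 and fell in 3 of 16 to 4 weeks. Their mean log2 signal was 11.61 to 11.75 at 1 week, 11.67 to 12.02 at 4 weeks and 11.79 to 12 at 8 weeks. Their part in the rise of Cav1 and Clic5 was not tested. Lymphatic endothelium rose in 1 of 4 and mesothelium fell in 1 of 4 to 4 weeks, near the shares of all genes, and both carry Pdpn. Cardiomyocyte genes, which bear on Hopx, had a mean of 8.23 to 9.79 in lung at 1 week, 8.88 to 10.18 at 4 weeks and 8.26 to 10.12 at 8 weeks, and 2 of 8 rose to 4 weeks; in heart their mean was 13.95 to 15.01. Their part in the Hopx signal was not tested.

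**Figure D3:**
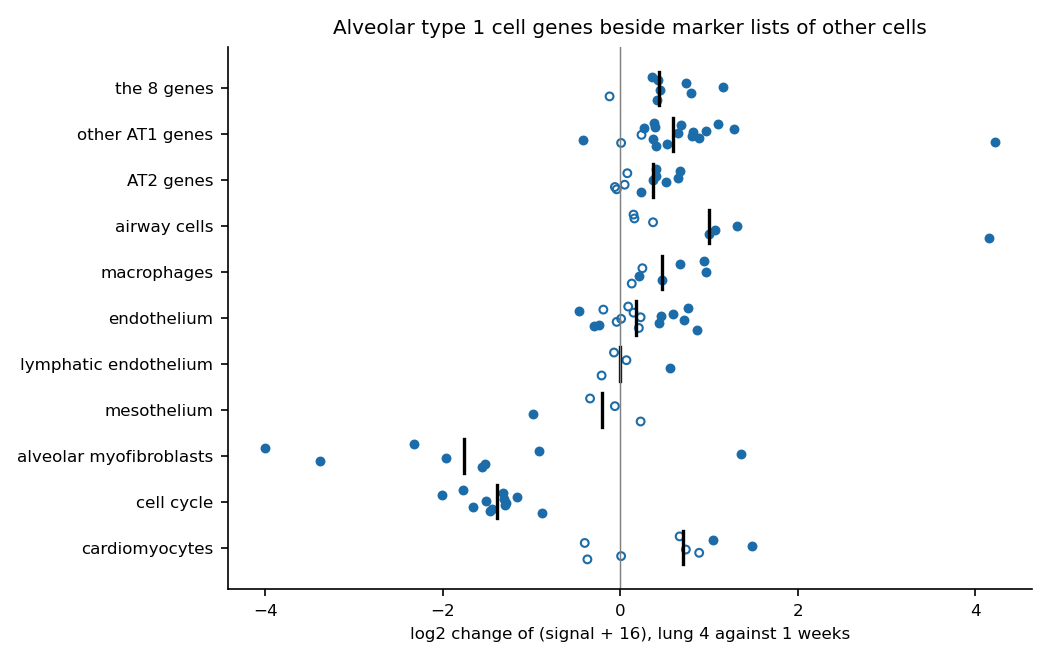
Change from 1 to 4 weeks in lung, as the log2 difference of (signal + 16), of the 8 type 1 cell genes and of marker lists of other cells. Each point is a gene, filled where it passed limma's threshold, and the bar is the list's median. The median is 0.44 for the 8 genes, 1.00 for airway cells, 0.71 for cardiomyocytes and 0.47 for macrophages. It is 0.37 for type 2 cells, 0.18 for endothelium and -1.76 for myofibroblasts.

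Within an age, the lung arrays differed in step for most of the genes by the signals as deposited, and less so after quantile normalization. Over the 14 arrays, with the mean of each age removed, Ager and Hopx correlated at r = 0.94, and Ager with Cav1 and Hopx with Cav1 at 0.91 each. All 21 pairs without Akap5 were above 0, from 0.04 to 0.94 with a median of 0.45, and all 7 pairs with Akap5 were below 0, from -0.70 to -0.28. These points share their array and its scaling. Over the 179 genes with a mean lung signal of at least 10000, the median r with Ager was 0.77. After quantile normalization that median was 0.00. Ager and Hopx then correlated at 0.68, Hopx and Cav1 at 0.42 and Ager and Cav1 at 0.31. The median over all 28 pairs was 0.35 before it and 0.20 after it. The 7 pairs with Akap5 stayed below 0 (-0.65 to -0.16).

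The 4-week lung replicate 1 stood out in this respect. It was the lowest of the 5 arrays of its age for 7 of the 8 genes and the highest for Akap5. The mean deviation of the 8 genes on it was -0.19 (log2). Its poly-A spike controls had a mean log2 signal of 11.18, against 10.02 to 10.04 on the other 4-week lungs. Its type 2 list was at 13.29 against 13.50 to 13.76, and its endothelial list at 11.67 against 11.86 to 12.02. The spike controls were also high on 8-week lung replicates 1 (11.07) and 4 (11.14). The first of these was the lowest of its age for Ager, Hopx, Aqp5 and Cav1, and the second the highest for Ager and Hopx. The part of these measures in the spread was not tested.

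**Figure D4:**
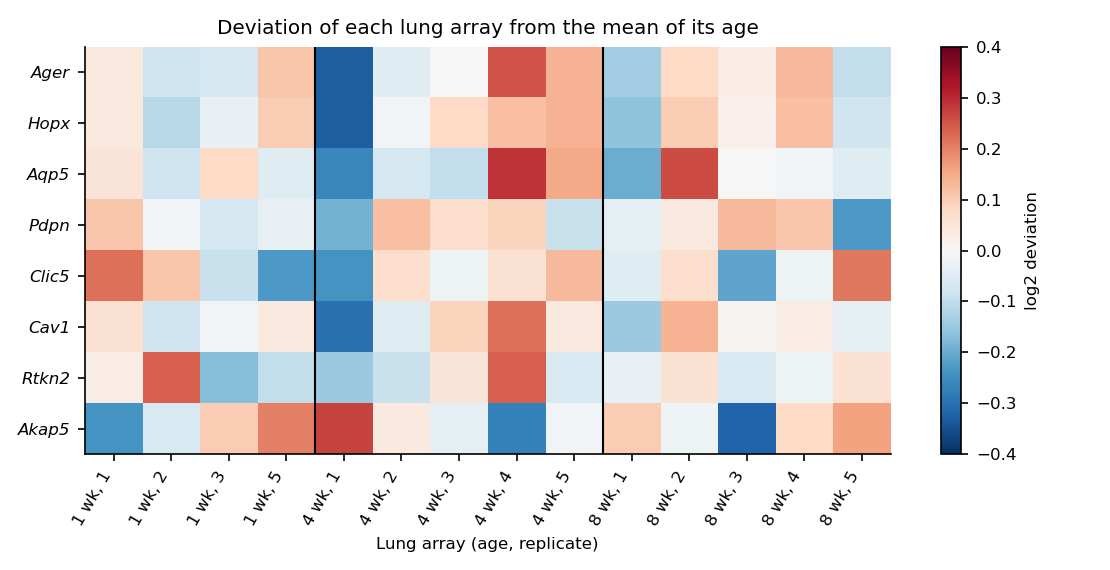
Deviation of each gene (rows) on each of the 14 lung arrays (columns, by age and replicate) from the mean of its age, in log2 units by colour, blue below and red above the mean. On the 4-week replicate 1 Akap5 is at its highest and the other 7 genes are at their lowest among the 5 arrays of 4 weeks.

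The genes most like each member over the 14 lung arrays, by Pearson r of log2(signal + 16) among 13807 genes, were named as a description. Hopx was closest to Cyp2f2 (r = 0.985), a cytochrome P450 of club cells, and Aqp5 to Slc22a23 (0.983). Clic5 was closest to Dpep1 (0.98), Cav1 to Itm2b (0.979), Ager to Npc2 (0.975), Rtkn2 to Fbxo9 (0.961), Akap5 to Qk (0.938) and Pdpn to Rhot1 (0.896). The 14 arrays span 3 ages, so these values include the change with age. Over the 38 arrays of all organs the closest gene to Hopx was Cav1, at 0.987, and that to Clic5 was Cav2 (0.973). Ager was closest there to Emp2 (0.983) and Aqp5 to the phosphate transporter gene Slc34a2 (0.986). The 38 arrays span lung, kidney and heart, so these values include the differences between organs.

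Between organs, the 8 genes fell into those bright in lung alone and those bright elsewhere too. All 8 were higher in lung than in kidney at 1, 4 and 8 weeks, against 25.2%, 35.7% and 35.8% of all 14973 genes tested. By the probe sets used, Ager, Aqp5, Rtkn2 and Akap5 did not reach the tested level in kidney, and lung brought them into these counts. The 8 were chosen as genes of a lung cell type, so the counts are a description. The differences for Hopx were 3.05, 4.57 and 4.29 (log2) at the 3 ages. For Cav1 they were 2.86, 3.68 and 3.66, for Clic5 1.76, 2.82 and 2.47, and for Pdpn 1.47, 2.62 and 2.53. Adjusted p was at most 3.5e-15 for these 4 genes (limma).

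By the probe sets used, Ager, Aqp5, Rtkn2 and Akap5 were under the level of 117.9 in kidney as group means at every age, so the size of their difference depends on the offset of 16 and is no bound. Ager had kidney means of 93.1 ± 92.3 at 1 week, 8.98 ± 2.61 at 4 weeks and 9.32 ± 1.33 at 8 weeks (SD, n = 5). At 1 week the kidney arrays read 222.3, 24.8, 11.7, 49.1 and 157.8, so replicates 1 and 5 stood above the other 3. The dimmer Ager probe set had kidney means of 212.4, 163.7 and 132.2 at the 3 ages, above that level, and was higher in lung by 5.51, 6.40 and 6.65. One of the dimmer Akap5 probe sets had kidney means of 145.7, 121.4 and 131.9 and was higher in lung by 3.82, 3.71 and 3.46. Akap5 had kidney means of 39.5, 39.3 and 43.9, Aqp5 of 39.9, 56.7 and 41.0, and Rtkn2 of 42.0, 21.8 and 34.7.

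Against heart at 1 week, 6 of the 8 genes were higher in lung and 1, Hopx, was lower, against 31.9% and 20.7% of all genes (limma). At 4 weeks 7 were higher and Hopx again lower, against 39.9% and 24.3%. By the probe sets used, Aqp5, Rtkn2 and Akap5 were under the tested level in heart at both ages and entered these counts through lung. Their lung arrays all lay above their heart arrays, but the size of their difference depends on the offset and is no bound. A dimmer Akap5 probe set, above that level in heart with means of 172 and 154.1, was higher in lung by 3.65 and 3.4. Pdpn was higher in lung by 2.24 and 2.99 and Clic5 by 1.40 and 1.62 at the 2 ages. The directions for Hopx and Cav1 depended on the scaling of the arrays, and that for Hopx at 4 weeks on the probe set. Hopx differed by -0.88 at 1 week and -0.25 at 4 weeks, and by -0.41 and 0.50 after quantile normalization. Its other probe set gave -0.97 at 1 week and 0.14 at 4 weeks (adjusted p = 0.42, limma), and the mean of both gave -0.05 at 4 weeks (adjusted p = 0.63). Cav1 differed by -0.11 (adjusted p = 0.44) and 0.29 (adjusted p = 0.019), and by 0.38 and 0.97 after quantile normalization. The median of all genes was 0.15 and 0.18 in these comparisons.

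Heart means of Hopx were 21610 ± 1580 at 1 week (SD, n = 4) and 23310 ± 1910 at 4 weeks (n = 5), beside lung means of 11720 ± 759 and 19690 ± 2460. Heart means of Cav1 were 15750 ± 504 and 16350 ± 600, beside 14560 ± 646 and 20050 ± 2590 in lung. Single arrays decided the 4-week calls of Hopx and Cav1 in lung against heart, and those of the other genes held without any 1 array. The difference of Hopx did not pass without lung replicate 1 (-0.17, adjusted p = 0.15) or without heart replicate 1 (-0.23, adjusted p = 0.06), 2 (-0.23, adjusted p = 0.068) or 5 (-0.22, adjusted p = 0.074), and that of Cav1 did not without lung replicate 4 (0.23, adjusted p = 0.069). Ager read 28.6 to 409.4 on the 4-week heart arrays, Aqp5 11.4 to 16.3, Rtkn2 2.7 to 55.1 and Akap5 81.2 to 123.2.

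In kidney, the genes that rose in lung did not follow the same course. Of the 4 tested from 1 to 4 weeks, Hopx, Pdpn and Cav1 fell, against 25.3% of all genes, and none rose, against 17.3%. Hopx read 1441, 1437, 1365, 1302 and 1471 at 1 week, 649.3, 852.8, 762.3, 797.7 and 1012 at 4 weeks, and 1040, 1007, 1084, 1233 and 860.1 at 8 weeks. The 1-week arrays lay above all later ones. Hopx fell by 0.79 to 4 weeks (adjusted p = 5.4e-05, limma) and changed by -0.43 from 1 to 8 weeks (adjusted p = 0.007). Its other probe set changed by -0.86 (adjusted p = 0.0025) and -1.01 (adjusted p = 0.00063) over these intervals.

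Pdpn in kidney read 1169, 1144, 1068, 1141 and 1228 at 1 week, 810.4, 669, 600.7, 690.7 and 709.1 at 4 weeks, and 747.7, 597.9, 643.7, 603 and 554.9 at 8 weeks. No later array came near the 1-week values. It fell by 0.72 to 4 weeks (adjusted p = 2.4e-05, limma) and by 0.86 to 8 weeks (adjusted p = 3.1e-06). Podocyte genes fell over the same interval, 7 of 8 tested from 1 to 4 weeks with a median of -1.07, against 25.3% of all genes. Their mean log2 signal was 10.31 to 10.60 at 1 week, 9.17 to 9.48 at 4 weeks and 9.16 to 9.52 at 8 weeks. Their part in the fall of Pdpn was not tested.

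Cav1 in kidney read 1705, 2013, 2544, 1990 and 1804 at 1 week and 1878, 1566, 1214, 1502 and 1635 at 4 weeks. The ages overlapped. Its change of -0.36 (adjusted p = 0.041, limma) did not pass when any 1 of 8 arrays was left out: replicates 2, 3 and 4 of 1 week, 2, 3, 4 and 5 of 4 weeks, or 4 of 8 weeks, with adjusted p of 0.05 to 0.11. Endothelial genes fell in 10 of 16 in kidney over this interval, against 25.3% of all genes, and their part was not tested.

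From 4 to 8 weeks none of the 4 genes passed in kidney, against 0.632% of all genes by limma, and 1 had an unadjusted p under 0.05, Hopx, with a change of 0.36 (adjusted p = 0.31); its other probe set gave -0.15, the opposite sign. From 1 to 8 weeks Hopx, Pdpn and Cav1 fell, against 28.0% of all genes, and Clic5 rose by 0.29 (adjusted p = 0.021), against 19.3%. Clic5 did not pass without replicate 2 of 1 week (0.22, adjusted p = 0.06), and its other 3 probe sets gave 0.63, 0.18 and 0.16, none past the threshold (adjusted p of 0.055 to 0.51). The change of Cav1, -0.39 (adjusted p = 0.026), did not pass without replicate 3 of 1 week or replicate 2, 3 or 4 of 8 weeks (adjusted p 0.057 to 0.072). The actin difference was 0.34 to 0.51 in kidney at 1 week, 0.61 to 1.43 at 4 weeks and 0.73 to 0.99 at 8 weeks. The 1-week range lay below both later ones, so this measure and age are not well separated in kidney. With the measure as a covariate, Hopx changed by -0.26 (adjusted p = 0.19, limma) and Clic5 by 0.30 (adjusted p = 0.097) from 1 to 8 weeks. In lung this measure was 0.36 to 0.46, 0.36 to 0.54 and 0.39 to 0.55 at the 3 ages.

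In heart, 1 of the 5 genes tested rose from 1 to 4 weeks, Clic5, against 11.7% of all genes, and none fell, against 14.6%. Clic5 read 1726, 1211, 1246 and 1224 at 1 week and 2334, 2705, 2641, 2334 and 2896 at 4 weeks. The ages did not overlap, and replicate 1 was the highest of 1 week. Its change was 0.94 ± 0.14 (log2, SE; adjusted p = 0.00086, limma), and it was 0.68 (adjusted p = 0.096) with the left-out heart array kept as labelled. Pdpn changed by -0.32 (adjusted p = 0.061), and without replicate 1 of 1 week by -0.39 (adjusted p = 0.027). Hopx changed by 0.11, Cav1 by 0.05 and Ager by -0.06, the last with an SE of 0.61.

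**Figure D5:**
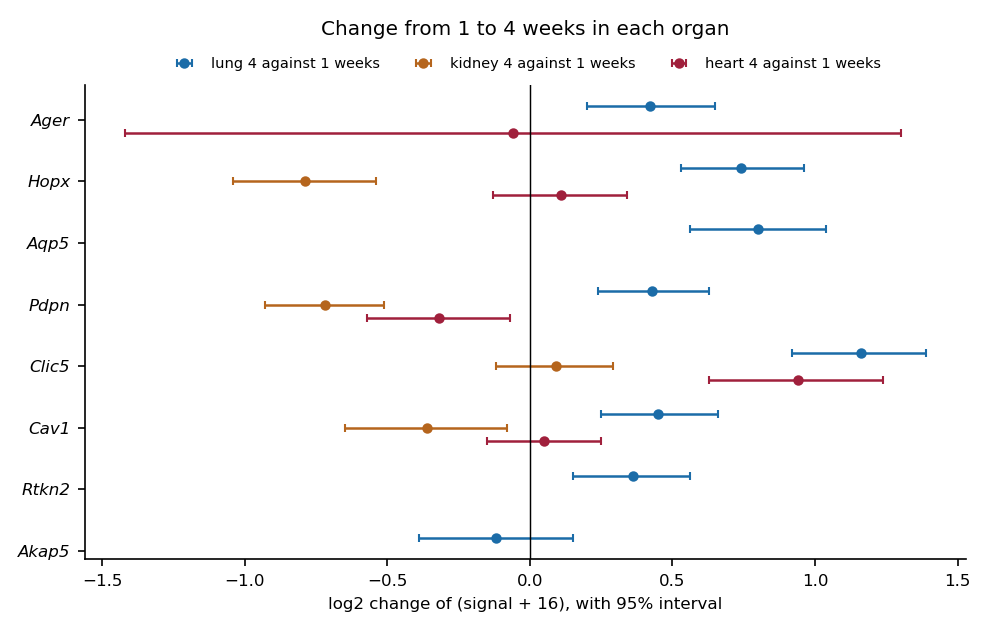
Change of each gene from 1 to 4 weeks in lung, kidney and heart where it was tested, as the log2 difference of (signal + 16) with its 95% interval from limma. Hopx and Pdpn lie above 0 in lung and below 0 in kidney, and Clic5 lies above 0 in lung and heart. The small heart values of Hopx (0.11) and Cav1 (0.05) turn negative under quantile normalization, at -0.21 and -0.18.

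The difference between organs was tested on the changes themselves. From 1 to 4 weeks the change in lung exceeded that in kidney for all 4 genes whose probe set reached the tested level in both organs, Hopx, Pdpn, Clic5 and Cav1 (limma). The difference was 1.53 for Hopx (adjusted p = 8e-10), 1.15 for Pdpn (adjusted p = 2.3e-08), 1.07 for Clic5 (adjusted p = 1.5e-06) and 0.82 for Cav1 (adjusted p = 0.00011). These calls held without any 1 array. The other Hopx probe set gave 1.70, and those of Clic5 gave 1.21, 1.06 and 0.50, the last not past the threshold (adjusted p = 0.25).

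In the fit as a whole 6 of the 8 genes passed, against 16.4% of all genes, but Ager (2.09) and Rtkn2 (1.02) entered it through lung and not kidney. Their kidney signals were under the tested level, so these values depend on the offset and on low kidney signals and are no measure of a difference between the organs. Ager's other probe set, above that level in kidney, differed by 0.89 and did not pass (adjusted p = 0.11). With the actin covariate Ager differed by 1.87 (adjusted p = 0.074) and Rtkn2 by 0.83 (adjusted p = 0.16). Rtkn2 (adjusted p = 0.031) did not pass without any 1 of 7 arrays (adjusted p of 0.054 to 0.066): kidney replicates 3 and 4 of 1 week, kidney replicates 2 and 3 of 4 weeks, lung replicates 3 and 5 of 1 week, or lung replicate 4 of 4 weeks. Aqp5 (0.35, adjusted p = 0.58) and Akap5 (-0.13, adjusted p = 0.79) did not pass, though Aqp5 did with an offset of 64 (0.56, adjusted p = 0.046).

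From 1 to 8 weeks 5 genes passed against kidney, against 18.7% of all genes. The differences were 1.24 for Hopx, 1.07 for Pdpn, 0.80 for Cav1 and 0.71 for Clic5, the 4 genes at the tested level in both organs. The other Clic5 probe sets gave 0.99, 0.68 and 0.00, the last not past the threshold (adjusted p = 1), and the other of Hopx gave 1.85. Ager passed at 2.04 with its kidney signal under the tested level. Its other probe set gave 1.14 (adjusted p = 0.034), and with all arrays as labelled it did not pass (adjusted p = 0.071). Without kidney replicate 3 of 1 week, Aqp5, also under that level in kidney, passed at 1.01 (adjusted p = 0.036), beside 0.76 (adjusted p = 0.15) with all arrays.

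Against heart, from 1 to 4 weeks, 3 genes passed, against 9.94% of all genes. They were Hopx at 0.63 (adjusted p = 0.0029), Pdpn at 0.75 (adjusted p = 0.00011) and Rtkn2 at 1.35 (adjusted p = 0.0082), the last with heart signals under the tested level and so no measure of a difference. Hopx by its other probe set gave 1.11. Clic5 rose in both organs, and the difference of its changes was 0.22 (95% interval -0.10 to 0.54; adjusted p = 0.39). Cav1 differed by 0.40 (adjusted p = 0.078), and it passed without lung replicate 1 of 4 weeks at 0.47 (adjusted p = 0.032). Aqp5 differed by 1.06 (adjusted p = 0.07), and it passed without heart replicate 4 of 1 week at 1.29 (adjusted p = 0.027). Its heart signals, with means of 22.1 and 13.8, were under the tested level too, so neither value is a measure of a difference. These 3 comparisons share the lung arrays.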

How the data were processed

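Trizol-extracted total RNA of whole organs was turned into biotin-labelled cRNA for 40 Affymetrix mouse arrays of 45101 probe sets, per the labels' protocols. The submitters' processing notes name RMA and Partek 6.6. The deposited values are linear intensity values, and the mean of each array, trimmed by 2% at each end, is 500 in the files; they are not on the log2 scale that RMA writes, and the summary method is not given in the sources used here.

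Of the probe sets, 34945 carry 1 gene symbol (932 carry several and were not used), updated through RefSeq. A gene's value came from the brightest of its probe sets on average. The test level for a group mean was 117.9, the 40th percentile of all signals. Ages were compared within an organ, and organs over all 38 arrays used, with limma 3.58.1 in R 4.3.3 (lmFit, eBayes) on log2(signal + 16), with Benjamini-Hochberg adjustment over all genes tested at a threshold of 0.05. This scale understates the fold of dim genes. Scripts were tested on simulated data. The R package data.table (1.17.8) read the files; Python 3.11.15 with matplotlib 3.10.9 made the figures.

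The 8 genes and the 19 lists (178 of 193 entries matched) were chosen with earlier results of these data known. Named genes are the 8 genes, up to 4 of each list with the largest change among those called from 1 to 8 weeks in lung, and the genes most like each of the 8. Lung arrays with the same replicate number did not deviate together (r of -0.07 to 0.22 over 13 pairs), so the numbers were not used as a pairing. The samples also carry a description number, which would join organs of the same age if it names the animal. Such pairs gave r of -0.17 to 0.25 over 18 pairs, and pairs with other numbers -0.29 to 0.43 over 138. As a random block over all organs, this number had a consensus correlation of 0.014. The main fits treat the organs as separate animals. The alternatives tried were the offset, the filter, quantile normalization, the mean of all probe sets or each alone (the last chosen after seeing the data), all arrays as labelled, eBayes settings, blocks, a covariate for RNA quality and leaving out each array.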

Additional observations from a re-analysis of the deposited data

Results flagged for a closer look

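In 4 of 64 groups of arrays tested, 1 array stood far from the others of its gene, organ and age; chance gives about 1 in 20. All 4 were heart arrays. Clic5 read 1726 on replicate 1 of 1 week, against 1211 to 1246 on the others, and Cav1 read 15000 on replicate 3, against 15930 to 16070. Rtkn2 read 82.3 on replicate 4 of 1 week, against 40.5 to 44.4, and Akap5 read 81.2 on replicate 4 of 4 weeks, against 115.7 to 123.2, the last pair of genes being under the level tested.

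A test of the difference between organs, by limma, passed for 14 changes of the genes. Lung minus kidney, from 1 to 4 weeks, was 2.09 for Ager, 1.53 for Hopx, 1.15 for Pdpn, 1.07 for Clic5, 0.82 for Cav1 and 1.02 for Rtkn2. From 1 to 8 weeks it was 2.04 for Ager, 1.24 for Hopx, 1.07 for Pdpn, 0.71 for Clic5 and 0.80 for Cav1. Lung minus heart, from 1 to 4 weeks, was 0.63 for Hopx, 0.75 for Pdpn and 1.35 for Rtkn2. The values of Ager against kidney and of Rtkn2 against both organs, 4 of the 14, rest on signals under the tested level in kidney or heart. They depend on the offset and are no measure of a difference; Ager's other probe set gave 0.89 (adjusted p = 0.11) and 1.14 (adjusted p = 0.034).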

How the results depend on the processing

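Of 158 counts of genes called under the alternatives, 153 stayed within 1.5 times the main count. With all 40 arrays as labelled, the count fell from 7 to 3 in lung from 1 to 4 weeks, from 6 to 3 from 1 to 8 weeks, and from 1 to 0 in heart. Akap5 then turned to 0.87 and 0.70 in lung to 4 and 8 weeks, to 0.86 and 0.55 against the kidney change and to 1.66 against the heart change, none called. The heart count was 2 with the 60th percentile filter, and the kidney count from 1 to 8 weeks fell from 4 to 2 with the actin covariate. In kidney the actin difference did not overlap between those ages. Under quantile normalization Cav1 at 1 week and Hopx at 4 weeks turned to 0.38 and 0.50 in lung against heart, and in heart from 1 to 4 weeks Hopx turned to -0.21 and Cav1 to -0.18. The mean of all probe sets gave Hopx -0.08 there. With the actin covariate, Cav1 in kidney from 4 to 8 weeks was 0.02, Ager in heart 0.13 and Aqp5, lung minus kidney to 4 weeks, -0.05. An offset of 64 gave Ager in heart 0.00. Other probe sets alone gave opposite signs for Clic5 in kidney to 4 weeks (-0.09), Hopx in kidney from 4 to 8 weeks (-0.15), in heart (-0.28) and in lung against heart at 4 weeks (0.14), Akap5 lung minus kidney to 4 weeks (0.24), and Clic5 lung minus kidney to 8 weeks (-0.00) and lung minus heart (-0.16), none called. The cause of these changes was not tested.

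Leaving out 1 array at a time, the heart count ran from 1 to 2. The lung count from 1 to 8 weeks ran from 6 to 7. In kidney the count ran from 2 to 3 (1 to 4 weeks) and from 3 to 4 (1 to 8 weeks). Lung minus kidney ran from 5 to 6 over both intervals, lung minus heart from 3 to 4, and lung against heart at 4 weeks from 7 to 8. No other count changed on leaving out 1 array. The changes of sign this gave were in values that were not called: Ager in heart (-0.44 to 0.43) and from 4 to 8 weeks in lung (-0.11 to 0.04), Hopx (-0.01 to 0.11) and Cav1 (-0.12 to 0.01) there, Cav1 from 4 to 8 weeks in kidney (-0.11 to 0.04), Akap5 lung minus kidney to 4 weeks (-0.27 to 0.04) and Ager lung minus heart (-0.01 to 0.86). The replicate number joins arrays of different ages within an organ, so as a block it stands for no animal. With that block no call in lung changed. Cav1 in kidney lost its call at -0.36 (adjusted p = 0.081, limma) to 4 weeks and -0.39 (adjusted p = 0.056) to 8 weeks, and Ager in heart turned to 0.43. Genes under a signal of 117.9 were not tested within an organ.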
